A study of Mus musculus with 10 samples.

Results

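Apoe, Lpl, Nr1h3, Ch25h, Abca1, Abcg1, Soat1, Plin2, Lipa and Npc2 are 10 mouse genes of lipoprotein and cholesterol handling, out of 24421 gene symbols in the count files. They were picked by symbol for their roles in lipoproteins, cholesterol efflux, esterification and lysosomal lipid release, with earlier results of these data known. Apoe was the most abundant of them per kilobase of annotated exon in each group, and together with Npc2 it passed the test between APP/PS1 and WT. Lpl differed more between sets of library numbers than between groups.

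Glia load cholesterol and phospholipid onto apolipoprotein E, and neighbouring cells take up the particles through receptors of the low-density lipoprotein family. A cell that has engulfed myelin or debris frees the sterol in its lysosomes, exports it through ABC transporters, or stores it as ester in droplets. Liver X receptors sense oxysterols and raise the transcription of Apoe and the efflux transporters, and microglia near amyloid plaques are known for high Apoe, Lpl and Trem2.

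RNA was read from cells that the labels call microglia, taken from the cortex of 9-month-old mice, in 10 libraries. WT mice gave 3 libraries, and APP/PS1 mice, which overexpress the hAPP695swe and PS1 M146V transgenes, gave 4. The promoters that drive the transgenes were not named in the sources used. A further 3 libraries, APP/PS1+N-AS, came from APP/PS1 mice given N-AS (N-acetyl sphingosine, a short-chain ceramide) under the skin each day, with a dose of 30 mg/kg and a course of 8 weeks that began at 7 months. Per the study's figure legends each library pooled 2 mice, so the library is the replicate, and the untreated APP/PS1 mice received vehicle. Cells were released with papain and separated on a density gradient, with no sort on a surface marker. The study states that the purity of its neuron and microglia fractions was checked with the markers NeuN and Iba1. Ribosomal RNA was depleted and the libraries were stranded and paired-end.

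The total count was 8805804, 17102559 and 19133654 in WT 1 to 3. It was 12971720, 12474941, 13129332 and 19432075 in APP/PS1 1 to 4, and 16500725, 19035817 and 12755933 in APP/PS1+N-AS 1 to 3. Levels are given as CPM, the scale on which every library has the same total, with library sizes adjusted by the TMM method. Differences are log2 fold changes fitted by edgeR ± the standard error, and a gene was called at a Benjamini-Hochberg adjusted p under 0.05 over 18727 genes tested.

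The libraries carry the numbers 1 to 10 in the labels. Numbers 1 to 6 hold replicates 1 and 2 from all 3 groups, while numbers 7 to 10 are WT 3, APP/PS1 3, APP/PS1 4 and APP/PS1+N-AS 3. What these numbers record is not stated. With group in the model, 894 of 18727 genes (4.77%) were lower in numbers 7 to 10 than in numbers 1 to 6, and 251 (1.34%) were higher. Of the 10 members 1, Lpl, was called, and it was lower. Values within each set are therefore given beside the pooled ones.

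The study states that only male mice were used. Xist, the RNA that coats the silenced X of female cells, read 4.40, 2.29 and 1.59 CPM in WT 1 to 3. In APP/PS1 1 to 4 it read 453, 482, 579 and 533 CPM, and in APP/PS1+N-AS 1 to 3 it read 463, 469 and 2.14 CPM. The Y-linked gene Ddx3y read 70.1, 73.2 and 69.0 CPM in WT, 17.5, 26.8, 0.478 and 0.476 CPM in APP/PS1, and 13.6, 19.0 and 73.4 CPM in APP/PS1+N-AS. Xist was high in the 4 APP/PS1 libraries and in APP/PS1+N-AS 1 and 2, and low in WT and APP/PS1+N-AS 3. Between APP/PS1 and WT, whatever separates the libraries by Xist cannot be told apart from genotype. Ddx3y also divided APP/PS1, being close to 0 in APP/PS1 3 and 4 and present in APP/PS1 1 and 2. In the contrast of APP/PS1+N-AS with APP/PS1, APP/PS1+N-AS 3 stood apart on both genes, and the members' values without it are given below.

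Of the 14 microglial markers on the list, all were detected in every library, and their summed CPM was 893, 1054 and 1290 in WT. The sum was 2795, 2882, 3572 and 3251 CPM in APP/PS1 and 2096, 2253 and 1717 CPM in APP/PS1+N-AS. The 3 groups did not overlap on this sum. By edgeR 12 of the 14 were called higher in APP/PS1 than in WT, P2ry12 and Tmem119 being the exceptions. Their log2 fold changes ran from 0.36 for P2ry12 to 2.51 for C1qa, and scaling on other choices of markers was not tested. None of the 14 was called between APP/PS1+N-AS and APP/PS1, where 11 were lower at an unadjusted p under 0.05, and 12 were higher than in WT at that threshold, again with 0 called. In bulk RNA, more cells of a type cannot be told apart from more RNA per cell. The members' differences are therefore also given with the libraries scaled on these 14 markers, and Apoe and Npc2, the called members, relative to the markers' mean log2 CPM in each library. Scaling the libraries on the markers moved the median log2 fold change of all genes between APP/PS1 and WT from −0.07 to −1.61. It moved from −0.0089 to 0.62 for APP/PS1+N-AS against APP/PS1, and from −0.04 to −0.94 for APP/PS1+N-AS against WT.

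Markers of other cells were abundant as well. The 10 oligodendrocyte markers summed to 6623, 6722 and 2376 CPM in WT, to 4621, 4092, 1875 and 1917 CPM in APP/PS1, and to 3755, 3815 and 2818 CPM in APP/PS1+N-AS. The 10 astrocyte markers summed to 2304, 2413 and 2715 CPM in WT, to 2530, 2614, 4019 and 3627 CPM in APP/PS1, and to 2345, 2410 and 3389 CPM in APP/PS1+N-AS, with Slc1a2 the most abundant. The 10 neuronal markers summed to 1670, 1956 and 5337 CPM in WT, to 2481, 2298, 2164 and 2574 CPM in APP/PS1, and to 2258, 2208 and 3123 CPM in APP/PS1+N-AS, with Snap25 the most abundant. WT 3 stood apart from the other WT libraries, with a lower oligodendrocyte sum and the highest neuronal sum of all libraries. No marker of these 3 lists was at 0 in any library. Of the 10 oligodendrocyte markers, 3 were called lower in APP/PS1 than in WT (Cnp, Opalin and Ermn), 8 were lower at an unadjusted p under 0.05, and all 10 were negative with a median log2 fold change of −1.30. Among the astrocyte markers 2 were called higher (Gfap at 5.65 and S100b at 1.21), while 5 of the 10 were negative and the median was −0.05. By edgeR 0 neuronal markers were called, with 0 at an unadjusted p under 0.05. In the N-AS contrast edgeR called 0 markers of these 3 lists, with Gfap at −1.67 and S100b at −0.81 lower at an unadjusted p under 0.05, and all 10 oligodendrocyte markers were positive with a median of 0.56. In APP/PS1+N-AS against WT Gfap was called higher at 3.98 (edgeR adjusted p 0.0187), and all 10 oligodendrocyte markers were negative with a median of −0.77. Oligodendrocytes and astrocytes transcribe several of the genes below, and their part in the results was not tested.

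**Figure D1:**
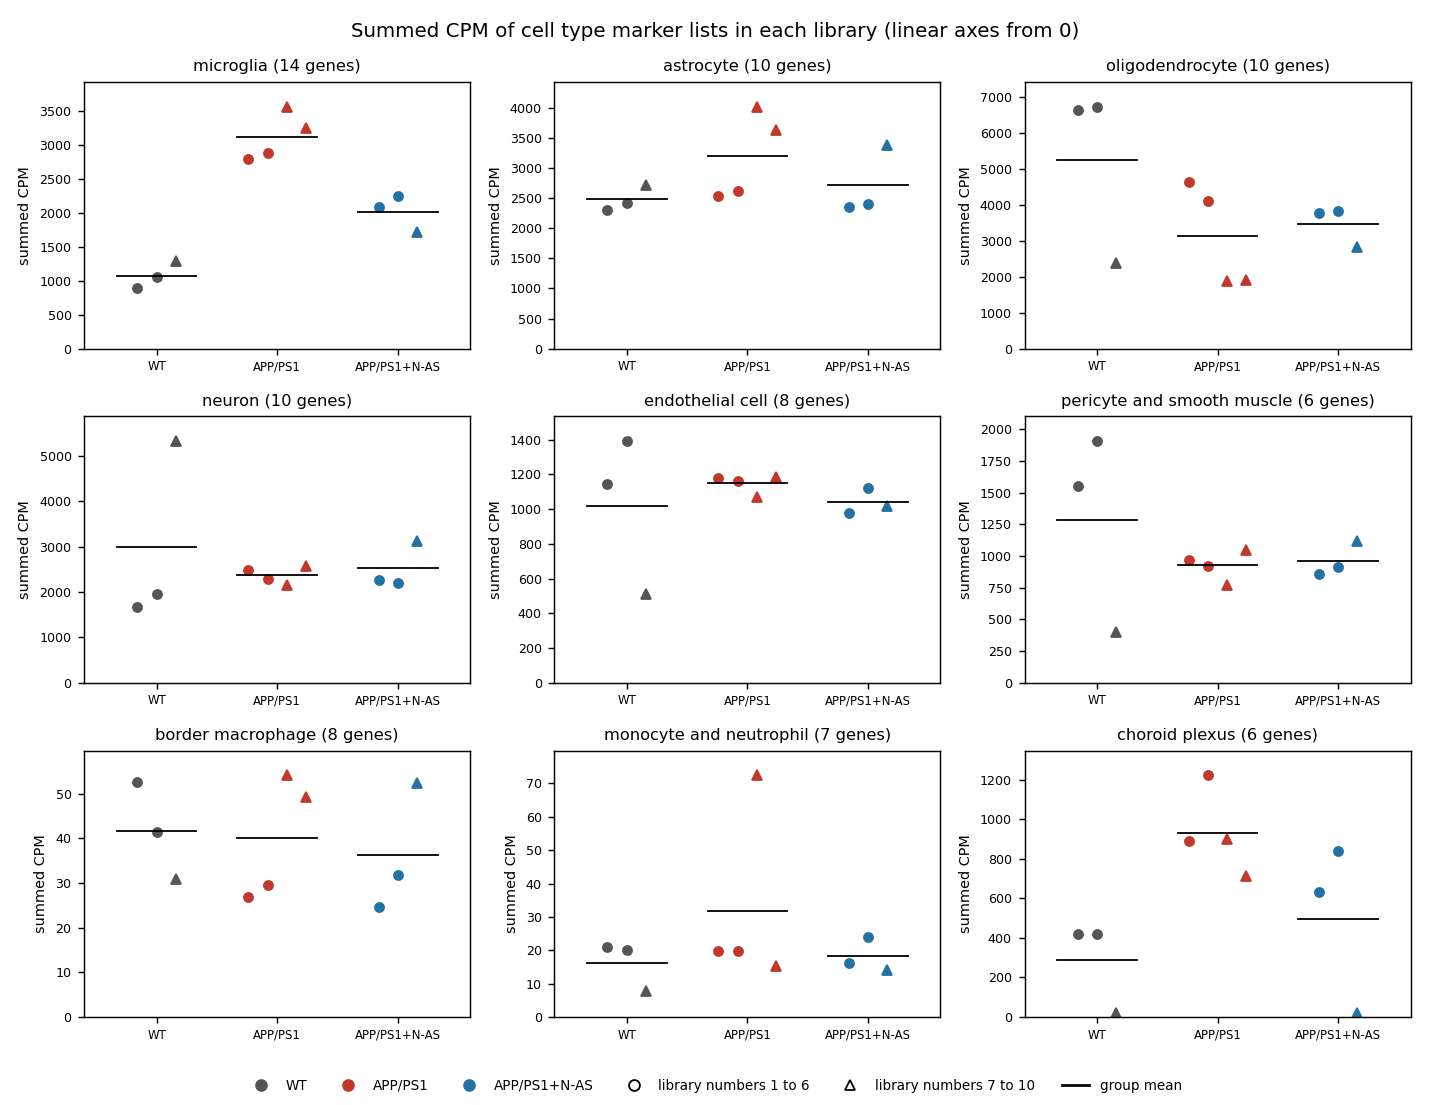
Summed CPM of each list of cell type markers, with 1 point per library and a line at each group's mean; circles are library numbers 1 to 6 and triangles 7 to 10. The microglial sum ran from 893 to 1290 CPM in WT and from 2795 to 3572 CPM in APP/PS1.

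Apoe encodes the lipid carrier of glial lipoproteins and lies at chr7:19696109-19699188 on the minus strand (GENCODE M21, build mm10). In WT 1 to 3 it read 613, 761 and 590 CPM. In APP/PS1 1 to 4 it read 2174, 2354, 3306 and 5001 CPM. In APP/PS1+N-AS 1 to 3 it read 1539, 1691 and 1311 CPM. The 3 groups formed separate ranges, with WT lowest and APP/PS1 highest, and APP/PS1 4 stood above the other APP/PS1 libraries. Apoe was 4.90-fold higher in APP/PS1 than in WT, a log2 fold change of 2.29 ± 0.31 with an adjusted p of 0.00316 by edgeR. Leaving out 1 library at a time gave 2.01 to 2.44, with adjusted p between 0.00325 and 0.0188. The difference in mean log2 CPM was 1.73 among library numbers 1 to 6 and 2.79 among numbers 7 to 10, which include 1 WT library.

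After N-AS the log2 fold change of Apoe from APP/PS1 was −1.08 ± 0.30, and it was not called by edgeR (adjusted p 0.494). DESeq2 called it at an adjusted p of 0.0215, and over the alternatives run for this difference adjusted p ranged from 0.0215 to 0.996. Without APP/PS1+N-AS 3, the Xist-low library, the log2 fold change was −0.98, and it ranged from −1.23 to −0.80 with any 1 library left out. The size differed between the sets, at −0.49 within numbers 1 to 6 and −1.63 within 7 to 10. Against WT, Apoe in APP/PS1+N-AS had a log2 fold change of 1.21 ± 0.31 that was not called by edgeR (adjusted p 0.283), with 1.24 and 1.15 within the sets and 0.27 with the marker scaling. It was called by DESeq2 and with library numbers 1 to 6 only, and adjusted p over the alternatives ranged from 0.00811 to 0.975.

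Relative to the mean of the 14 microglial markers, log2 Apoe stood at 3.75, 3.87 and 3.17 in WT and at 3.94, 4.00, 4.18 and 5.02 in APP/PS1. The groups still did not overlap on this scale, but the gap between WT 2 and APP/PS1 1 was small, and the difference of the means was 0.69. In APP/PS1+N-AS the relative level was 3.84, 3.88 and 3.97, which overlapped both other groups. With the marker scaling in edgeR the log2 fold change between APP/PS1 and WT was 0.73 with an adjusted p of 0.0503, and adjusted p over the alternatives ranged from 2.87e-14 to 0.067.

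Lpl encodes lipoprotein lipase, which releases fatty acids from triglyceride-rich particles, and lies at chr8:68880491-68907448 on the plus strand. It read 2025, 2330 and 506 CPM in WT. In APP/PS1 it read 4324, 3540, 1308 and 1457 CPM. In APP/PS1+N-AS it read 2827, 2262 and 1134 CPM. In every group the libraries numbered 7 to 10 were lower than those numbered 1 to 6, and the groups overlapped when pooled. Within each set, however, each APP/PS1 library stood above each WT library. The pooled log2 fold change between APP/PS1 and WT was 0.71 ± 0.58 and was not called (adjusted p 0.595). It was 0.30 without WT 3, 0.38 without APP/PS1 1 and 1.08 without WT 2. The differences in mean log2 CPM were 0.85 within numbers 1 to 6 and 1.45 within 7 to 10. With the set in the model, Lpl was 2.96-fold lower in numbers 7 to 10, a log2 fold change of −1.57 ± 0.18 with an edgeR adjusted p of 0.00335. In that model the difference between APP/PS1 and WT was 1.04 and was called at an adjusted p of 0.0195, where adjusted p over the alternatives ranged from 0.0195 to 0.821. The marker scaling turned the direction to −0.86.

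From APP/PS1 to APP/PS1+N-AS Lpl had a log2 fold change of −0.36 ± 0.57, which was −0.055 without APP/PS1+N-AS 3 and 0.16 with the marker scaling. With 1 library left out it ranged from −0.64 without APP/PS1+N-AS 1 to −0.017 without APP/PS1 1. Its differences were −0.63 within numbers 1 to 6 and −0.28 within 7 to 10. Against WT the value was 0.36 ± 0.61, with 0.22 and 1.16 within the sets, and −0.70 with the marker scaling. Leaving out WT 3, the lowest Lpl library, also turned the sign against WT, to −0.059, and leaving out WT 2 gave 0.72. Neither difference was called.

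As a description of pattern, the tested genes of at least 10 CPM on average whose log2 CPM followed Apoe most closely over the 10 libraries were Cyfip1 (Pearson r 0.984), Rpl19 (0.982), Naglu (0.98), Rpl6 (0.979) and Sgpl1 (0.978). For Lpl they were Pigr (Pearson r 0.991), Klk14 (0.99), Gm10408 (0.987), 0610030E20Rik (0.987) and Wipf2 (0.986). Each is the top of 10823 genes compared, and group and library set both enter these values.

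**Figure D2:**
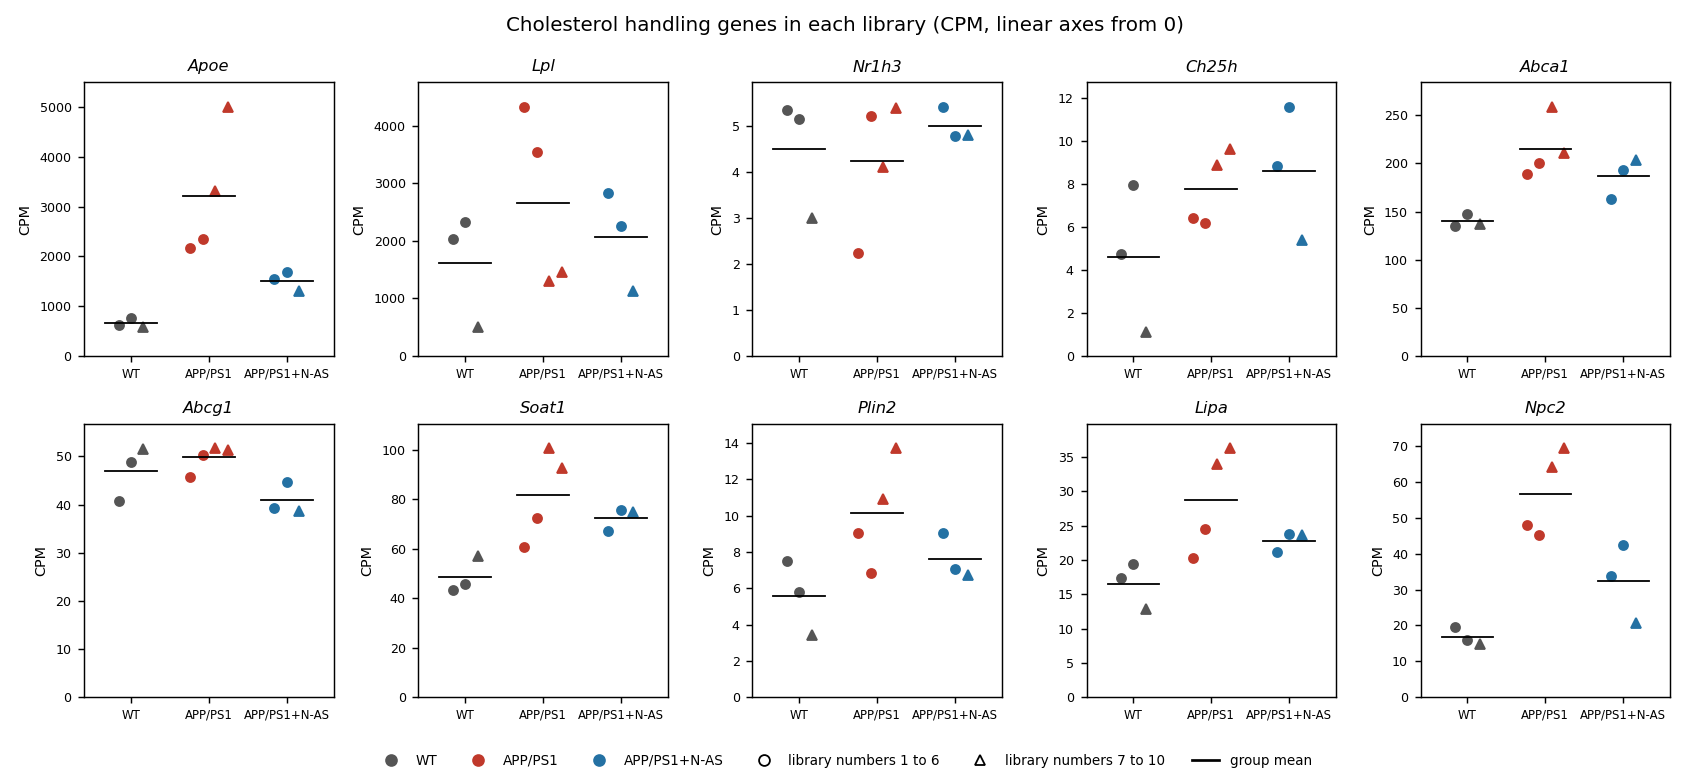
CPM of the 10 members in each library, 1 panel per gene with an axis from 0, a line at each group's mean, and circles for library numbers 1 to 6 and triangles for 7 to 10. Apoe ran from 590 to 761 CPM in WT and from 2174 to 5001 CPM in APP/PS1, and the triangles of Lpl lie at 506 to 1457 CPM.

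Nr1h3 encodes liver X receptor alpha, the oxysterol-sensing transcription factor. It read 5.35, 5.14 and 2.99 CPM in WT, 2.24, 5.21, 4.10 and 5.38 CPM in APP/PS1, and 5.40, 4.77 and 4.80 CPM in APP/PS1+N-AS. The groups overlapped, with WT 3 and APP/PS1 1 the lowest libraries. It had from 26 to 113 reads per library. The log2 fold change between APP/PS1 and WT was −0.07 ± 0.31 (adjusted p 0.942), and its sign differed between the sets, at −0.59 and 0.63. Without APP/PS1 1 the value was 0.14. With the marker scaling it was −1.65, close to the median of −1.61 for all genes, and was called at an adjusted p of 0.00104, where adjusted p over the alternatives ranged from 0.00104 to 0.999. The N-AS contrast gave 0.23 ± 0.31, with 0.55 and 0.031 within the sets, 0.27 without APP/PS1+N-AS 3, 0.029 without APP/PS1 1 and 0.86 with the marker scaling. Against WT the value was 0.16 ± 0.33, with −0.045 and 0.66 within the sets, and it turned to −0.062 without WT 3 and to −0.79 with the marker scaling. Without WT 1 it was 0.30.

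Ch25h encodes cholesterol 25-hydroxylase, which makes the oxysterol 25-hydroxycholesterol. It read 4.75, 7.92 and 1.11 CPM in WT, 6.39, 6.20, 8.88 and 9.62 CPM in APP/PS1, and 8.83, 11.6 and 5.39 CPM in APP/PS1+N-AS. WT 3 was lowest, with 23 reads, and the groups overlapped. The log2 fold change between APP/PS1 and WT was 0.78 ± 0.51 (adjusted p 0.491), and it depended on single libraries, at 0.28 without WT 3 and 1.54 without WT 2. Among numbers 1 to 6 the mean log2 CPM differed by 0.034, among 7 to 10 by 2.92, and the marker scaling gave −0.85. Against APP/PS1, the N-AS group differed by 0.14 ± 0.48, with 0.67 and −0.76 within the sets. That value was 0.40 without APP/PS1+N-AS 3, −0.13 without APP/PS1+N-AS 2 and 0.73 with the marker scaling. Against WT the value was 0.92 ± 0.53, with 0.71 and 2.16 within the sets and −0.12 with the marker scaling. It was 0.43 without WT 3 and 1.68 without WT 2. Ch25h shares 159 exonic bases with an annotated transcript on the opposite strand, Gm26902, and whether reads were assigned by strand is not stated.

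Abca1 encodes the transporter that hands cholesterol to lipid-poor apolipoproteins. It read 135, 147 and 137 CPM in WT, 189, 201, 258 and 211 CPM in APP/PS1, and 163, 193 and 203 CPM in APP/PS1+N-AS. Every APP/PS1 and every APP/PS1+N-AS library was above every WT library, and the APP/PS1 and APP/PS1+N-AS ranges overlapped. Its log2 fold change for APP/PS1 against WT was 0.62 ± 0.15, just outside the threshold by edgeR (adjusted p 0.0514), and −0.94 with the marker scaling. It was called by DESeq2, with at least 10 counts required in every library, and with the library set in the model, and adjusted p over the alternatives ranged from 6.41e-04 to 0.132. Within the sets the difference was 0.46 and 0.76. The N-AS contrast gave −0.20 ± 0.15, with −0.13 and −0.20 within the sets and 0.45 with the marker scaling. It ranged from −0.26 without APP/PS1+N-AS 3 to −0.11 without APP/PS1 3. Against WT the value was 0.42 ± 0.16 (adjusted p 0.657), with 0.33 and 0.56 within the sets, 0.38 to 0.51 with 1 library left out and −0.49 with the marker scaling.

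Abcg1 encodes the transporter that passes cholesterol to formed lipoprotein particles. It read 40.6, 48.8 and 51.6 CPM in WT, 45.7, 50.3, 51.6 and 51.4 CPM in APP/PS1, and 39.3, 44.6 and 38.7 CPM in APP/PS1+N-AS. WT and APP/PS1 overlapped almost fully, while the APP/PS1+N-AS libraries were all below APP/PS1. APP/PS1 and WT differed by a log2 fold change of 0.08 ± 0.12 (adjusted p 0.790), with 0.11 and −0.002 within the sets. That sign turned without WT 1, at −0.013, and with the marker scaling, at −1.44. The N-AS contrast gave −0.28 ± 0.12, which was not called (adjusted p 0.538) and turned to 0.34 with the marker scaling. Within the sets it was −0.20 and −0.41, and it ranged from −0.36 without APP/PS1+N-AS 2 to −0.24 without APP/PS1+N-AS 3. Against WT the APP/PS1+N-AS value was −0.20 ± 0.13 (adjusted p 0.821), with −0.091 and −0.41 within the sets, −0.30 without WT 1 and −0.13 without WT 3. With the marker scaling that value was −1.11 and was called at an adjusted p of 0.00901, where adjusted p over the alternatives ranged from 0.00762 to 1. The median of all genes was then −0.94, and 13641 of 18727 genes were called lower.

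Soat1 encodes the enzyme that esterifies cholesterol for storage. It read 43.3, 45.9 and 57.1 CPM in WT, 60.8, 72.3, 101 and 92.9 CPM in APP/PS1, and 67.1, 75.9 and 74.8 CPM in APP/PS1+N-AS. Both APP/PS1 groups were above WT in every library, and APP/PS1 3 and 4 were above the rest. Its log2 fold change between APP/PS1 and WT was 0.74 ± 0.18 with an edgeR adjusted p of 0.0546, and it turned to −0.79 with the marker scaling. It was called by DESeq2, with the library set in the model, without APP/PS1 1 (adjusted p 0.0257) and without WT 3 (adjusted p 0.034), and adjusted p over the alternatives ranged from 7.37e-04 to 0.152. Within the sets the difference was 0.57 and 0.76. The N-AS contrast gave −0.17 ± 0.18, with 0.10 and −0.37 within the sets, −0.18 without APP/PS1+N-AS 3 and 0.48 with the marker scaling. It was −0.058 without APP/PS1 3 and −0.29 without APP/PS1 1. The marker scaling with the library set in the model gave 0.52, called higher by edgeR at an adjusted p of 0.0400. The median of all genes was then 0.62, and 7527 of 18727 genes were called higher. For this contrast adjusted p over the alternatives ranged from 0.0400 to 0.996. Against WT the value was 0.57 ± 0.19 (adjusted p 0.548), with 0.68 and 0.39 within the sets. It was 0.49 to 0.71 with 1 library left out, and −0.31 with the marker scaling. This difference was called by edgeR with library numbers 1 to 6 only, at an adjusted p of 0.049.

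Plin2 encodes perilipin 2, the coat protein of lipid droplets. It read 7.49, 5.82 and 3.42 CPM in WT, 9.06, 6.86, 10.9 and 13.7 CPM in APP/PS1, and 9.03, 7.05 and 6.72 CPM in APP/PS1+N-AS. WT 3 was lowest and APP/PS1 4 highest, and all 3 groups overlapped. For APP/PS1 against WT the log2 fold change was 0.89 ± 0.30 (adjusted p 0.143), with 0.25 and 1.80 within the sets, 0.64 without WT 3, 1.15 without WT 1, and −0.71 with the marker scaling. Against APP/PS1, the N-AS group gave −0.42 ± 0.29, with 0.02 and −0.85 within the sets, −0.33 without APP/PS1+N-AS 3 and 0.21 with the marker scaling. It ranged from −0.57 without APP/PS1 2 to −0.25 without APP/PS1 4. Against WT it gave 0.47 ± 0.31, with 0.27 and 0.95 within the sets, 0.21 without WT 3, 0.73 without WT 1, and −0.51 with the marker scaling.

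Lipa encodes lysosomal acid lipase, which splits cholesterol esters inside the lysosome. It read 17.4, 19.4 and 12.8 CPM in WT, 20.3, 24.5, 34.0 and 36.3 CPM in APP/PS1, and 21.1, 23.7 and 23.6 CPM in APP/PS1+N-AS. Every library of both APP/PS1 groups was above every WT library, by a small margin at APP/PS1 1, and APP/PS1 3 and 4 were the highest. Against WT, APP/PS1 had a log2 fold change of 0.80 ± 0.22 (adjusted p 0.074), with 0.28 and 1.44 within the sets, and −0.78 with the marker scaling. It was called by DESeq2 and without APP/PS1 1 (adjusted p 0.0344), and adjusted p over the alternatives ranged from 0.0133 to 0.386. The N-AS contrast gave −0.33 ± 0.21, with 0.01 and −0.57 within the sets, −0.35 without APP/PS1+N-AS 3 and 0.32 with the marker scaling. It ranged from −0.47 without APP/PS1 1 to −0.21 without APP/PS1 4. Against WT it was 0.47 ± 0.23, with 0.29 and 0.88 within the sets, 0.31 without WT 3, 0.62 without WT 2, and −0.46 with the marker scaling.

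Npc2 encodes the soluble lysosomal protein that carries freed cholesterol to the membrane, and lies at chr12:84754562-84773152 on the minus strand. It read 19.6, 16.0 and 14.7 CPM in WT, 48.2, 45.2, 64.1 and 69.4 CPM in APP/PS1, and 33.9, 42.4 and 20.8 CPM in APP/PS1+N-AS. The groups formed 3 separate ranges in the same order as Apoe, with APP/PS1+N-AS 3 close to WT 1. Npc2 was 3.40-fold higher in APP/PS1 than in WT, a log2 fold change of 1.77 ± 0.25 with an edgeR adjusted p of 0.00385. Leaving out 1 library at a time gave 1.67 to 1.89, with adjusted p between 0.00725 and 0.0248. Within the sets the difference was 1.39 and 2.17.

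The N-AS contrast for Npc2 gave −0.81 ± 0.24 and was not called (adjusted p 0.494), with −0.30 within numbers 1 to 6 and −1.67 within 7 to 10. Without APP/PS1+N-AS 3 it was −0.56, without APP/PS1+N-AS 2 it was −1.05, and with the marker scaling it was −0.22. Against WT the value was 0.96 ± 0.26 (adjusted p 0.325), with 1.09 and 0.50 within the sets, 0.73 without APP/PS1+N-AS 2, and −0.029 with the marker scaling. Without APP/PS1+N-AS 3 it was 1.22 and was called by edgeR at an adjusted p of 0.0426. In that fit the APP/PS1+N-AS libraries are Xist-high and the WT libraries Xist-low, so what separates them by Xist cannot be told apart from group. For this difference adjusted p over the alternatives ranged from 0.0189 to 1. Relative to the microglial markers log2 Npc2 was −1.21, −1.69 and −2.15 in WT and −1.56, −1.70, −1.50 and −1.15 in APP/PS1, and these ranges overlapped. In APP/PS1+N-AS the relative level was −1.66, −1.44 and −1.99, which overlapped both other groups. The marker scaling in edgeR gave 0.19 between APP/PS1 and WT, with an adjusted p of 0.457, where adjusted p over the alternatives ranged from 2.28e-09 to 0.457.

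**Figure D3:**
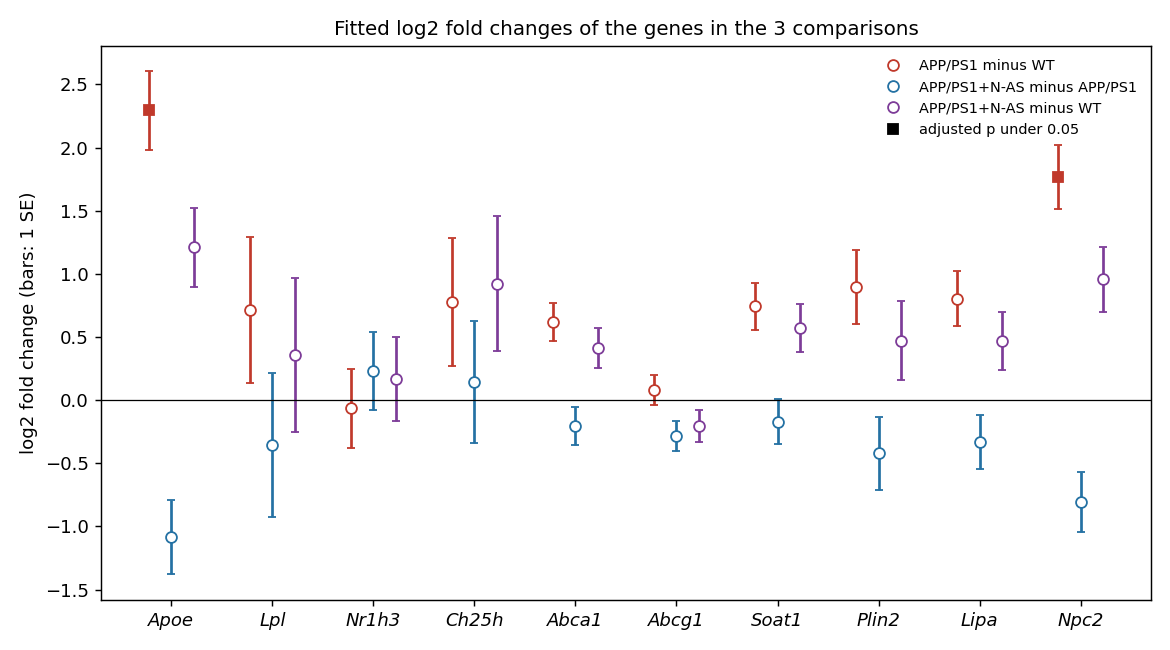
Log2 fold change and standard error of each member in the 3 comparisons, from the edgeR model of all 10 libraries, with filled squares for an adjusted p under 0.05. Between APP/PS1 and WT Apoe was at 2.29 and Npc2 at 1.77, and with marker scaling these were 0.73 and 0.19.

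Between APP/PS1 and WT edgeR called 2 of the 10 members higher, where 2.67% of all genes tested were higher, and 0 lower, where 0.796% were lower. Without adjustment 6 members reached a p under 0.05, all of them higher, against 8.3% of all genes higher. The libraries of 5 members (Apoe, Abca1, Soat1, Lipa and Npc2) did not overlap and were higher in APP/PS1, against 8.15% of all genes. The members' median log2 fold change was 0.76 and that of all genes −0.07. The members and the pathway lists were chosen with earlier results of these data known. Their counts and medians beside those of all genes, here and below, are therefore a description and not a test of the lists. DESeq2 called 5 members and 870 of 16534 genes higher, limma 2 members and 497 of 18727 genes, and the edgeR model with the library set 5 members and 751 of 18727 genes, beside 500 genes in the model without the set. Leaving out APP/PS1 1 raised the count to 4. With the marker scaling 0 members were called higher and 5 lower (Nr1h3, Abca1, Abcg1, Soat1 and Lipa), where 73 of all 18727 genes were called higher and 17043 lower.

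In the N-AS contrast edgeR called 0 members higher and 0 lower, and over all genes tested it called 0% higher and 0% lower. Of the members, 3 were lower at an unadjusted p under 0.05 (Apoe, Abcg1 and Npc2), against 4.05% of all genes. The same 3 had libraries that did not overlap, against 6.46% of all genes. DESeq2 called 1 member lower, Apoe, where it called 58 of 16534 genes lower. By limma 0 members and 0 of all genes were called. The median log2 fold change of the members was −0.31 and that of all genes −0.0089. With the marker scaling Apoe was at −0.46 and Npc2 at −0.22, beside a median of 0.62 for all genes.

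Between APP/PS1+N-AS and WT edgeR called 0 members higher, where 0.176% of all genes tested were higher, and 0 lower, where 0.0107% were lower. Of the members, 4 were higher at an unadjusted p under 0.05 (Apoe, Abca1, Soat1 and Npc2), against 3.64% of all genes. The libraries of 5 members did not overlap and were higher, against 4.9% of all genes. DESeq2 called 1 member, Apoe, where it called 160 of 16534 genes higher. By limma 0 members were called, where 18 of 18727 genes were higher. The median log2 fold change of the members was 0.47 and that of all genes −0.04. Since each pair of comparisons shares a group of libraries, the 3 sets of values are not independent of each other.

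Levels can be set beside each other between genes only per length, here as mean CPM per kilobase of annotated exon ± SD. That length joins all annotated exons of a gene, 2138 bases for Apoe, 10478 for Lpl and 5438 for Npc2. It can exceed the length of the transcripts present, so the order depends in part on the annotation. In WT the order was Apoe at 306 ± 43.5, Lpl at 155 ± 93.2 and Abca1 at 13.5 ± 0.634, then Abcg1 at 6.44, Soat1 at 4.98, Ch25h at 3.31, Npc2 at 3.09, Lipa at 2.44, Nr1h3 at 1.79 and Plin2 at 1.59 CPM per kilobase. Apoe, Lpl and Abca1 held the same first places in APP/PS1, at 1501 ± 605, 254 ± 144 and 20.7 ± 2.94, and in APP/PS1+N-AS, at 708 ± 89.5, 198 ± 82.3 and 18.0 ± 2.00 CPM per kilobase. Npc2 was in place 7 in WT, in place 4 in APP/PS1 at 10.4 ± 2.18, and in place 6 in APP/PS1+N-AS at 5.95 ± 1.99 CPM per kilobase. From Abcg1 down, neighbours in the WT order overlapped in their ranges of CPM per kilobase, while Apoe, Lpl and Abca1 did not overlap in WT.

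Beyond the members, 94 genes of the same pathway were listed, of which 87 were tested. Between APP/PS1 and WT edgeR called 8 of the 87 higher and 0 lower, where 2.67% of all genes were higher and 0.796% lower. Without adjustment 12 had a p under 0.05 and a higher level, and 8 a lower one, where 8.3% of all genes were higher and 8.9% lower. The receptor gene Trem2, whose product binds lipids and Apoe, read 12.1, 10.3 and 16.6 CPM in WT, 105, 126, 134 and 170 CPM in APP/PS1, and 62.3, 75.0 and 36.8 CPM in APP/PS1+N-AS. Its 3 groups did not overlap, in the order seen for Apoe and Npc2. The log2 fold change of Trem2 between APP/PS1 and WT was 3.36 ± 0.29 (edgeR adjusted p 3.79e-04). Others called were the oxysterol-binding protein gene Osbpl11 at 0.88, the ganglioside activator gene Gm2a at 0.85, the liver X receptor target Arl4c at 0.82, the transporter gene Abca9 and the lysosomal phospholipase gene Pla2g15 at 0.78 each, and the oxysterol receptor gene Gpr183 at 0.65. Their adjusted p ranged from 0.00183 for Osbpl11 to 0.0451 for Pla2g15. With the marker scaling 1 of the 87 was called higher and 82 lower, where 17043 of all 18727 genes were lower. The count of 8 fell to 3 without APP/PS1 3 or without APP/PS1 4, to 4 without WT 1, WT 2 or APP/PS1 2, all of them higher, and without WT 3 it was 12, with 10 higher and 2 lower.

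By role, the genes called higher between APP/PS1 and WT were 3 of 11 for lysosomal sterol and lipid release, 2 of 9 for oxysterol enzymes and their receptor, 1 of 13 lipoprotein and scavenger receptors, 1 of 5 efflux transporters and 1 of 10 partners or targets of the liver X receptors, where 2.67% of all genes were higher. A count of 1 in lists this short says little about a list. Of the 5 efflux transporters 4 had a negative log2 fold change, and the libraries of Abca2 (−0.73, edgeR adjusted p 0.0662) and Abcg4 (−0.69, edgeR adjusted p 0.0598) were lower in APP/PS1 without overlap. Other genes lower at an unadjusted p under 0.05 were 2 of the receptors (Vldlr and Olr1) and 1 lysosomal gene (Gramd1b). None was called by edgeR among 7 apolipoproteins and lipid transfer genes, 8 lipase partners and fatty acid carriers, 7 esterification genes, 4 lipid droplet coat genes and 13 sterol synthesis genes. At an unadjusted p under 0.05 these lists held 2 lower (Apod and Lcat), 2 higher (Fabp5 and Fabp7) and 1 lower (Lipg), 0, 0 and 0 genes in that order. All 13 sterol synthesis genes had a negative log2 fold change, with a median of −0.21 beside −0.07 for all genes.

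In the N-AS contrast edgeR and limma called 0 of the 87 pathway genes and 0 of all genes. DESeq2 called 79 of all genes, and 1 of the 87. At an unadjusted p under 0.05, 5 were lower (Trem2 at −1.20, Fabp5 at −0.62, Gm2a at −0.51, Arl4c at −0.36 and Osbpl11 at −0.31) and 3 were higher (Abca2 at 0.59, Gramd1a at 0.35 and Gramd1b at 0.33), where 4.05% of all genes were lower and 4.78% higher. Against WT, edgeR called 1 of the 87 in APP/PS1+N-AS, Trem2, at 2.15 ± 0.29 with an adjusted p of 0.0187. That count fell to 0 without WT 1, WT 2, APP/PS1+N-AS 1 or APP/PS1+N-AS 2. Without adjustment 8 of the 87 had a p under 0.05 and a higher level, and 2 a lower one, where 3.64% of all genes were higher and 3.09% lower.

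Promoter sequence from RefSeq (build GRCm38.p6) was at hand for 8 of the 10 members. Lpl and Abcg1 are named only. The 250 bases before each start were searched on both strands for AGGTCA (nuclear receptor half-site) and a pair of AGGTCA 4 bases apart (an exact form of the liver X receptor element). GGAAGT (ETS core), CACGTG (E-box), TGACTCA (AP-1) and TATAAA were searched in the same way. Only exact letters were matched, so a window without a match may still hold a variant of these sites, the liver X receptor element included. Of 32851 promoters, 14% held AGGTCA, 0.0152% the pair, 19.7% GGAAGT, 6.02% CACGTG, 4.46% TGACTCA and 12.4% TATAAA. The Abca1 window held CACGTG at −147 and TATAAA at −29 from the start. Soat1 held GGAAGT at −172, Lipa held GGAAGT at −50 and TATAAA at −239, Plin2 held AGGTCA at −218, Ch25h held TATAAA at −151, and a second start of Apoe held TATAAA at −100 and −96. These letters were not found in the Npc2 window, in either Nr1h3 window, or at the first and the third Apoe start. The sequences of the 2 called members and of Abca1, the efflux gene nearest the threshold, are shown because the APP/PS1 and WT ranges of these genes were separate. Capitals mark the motifs, and a match describes the letters only. All 3 lie on the minus strand: Apoe at chr7:19699189-19699438, Abca1 at chr4:53159896-53160145, and for Npc2 the stretch outside annotated exons, chr12:84773153-84773250.
Apoe: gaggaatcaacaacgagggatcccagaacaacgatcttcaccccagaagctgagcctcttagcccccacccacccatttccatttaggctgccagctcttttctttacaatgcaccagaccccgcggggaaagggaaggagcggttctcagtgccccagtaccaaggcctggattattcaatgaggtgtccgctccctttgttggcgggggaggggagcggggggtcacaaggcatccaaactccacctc
Abca1: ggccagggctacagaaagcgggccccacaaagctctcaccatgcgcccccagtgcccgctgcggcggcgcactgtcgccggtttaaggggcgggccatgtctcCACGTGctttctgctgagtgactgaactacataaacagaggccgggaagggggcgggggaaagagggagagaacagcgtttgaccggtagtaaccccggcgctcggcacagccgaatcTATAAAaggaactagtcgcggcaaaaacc
Npc2: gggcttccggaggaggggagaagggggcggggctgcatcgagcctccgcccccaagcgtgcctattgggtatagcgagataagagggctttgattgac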

How the data were processed

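The authors deposited raw read counts per gene symbol. Per the study's methods and the submitters' processing notes, paired reads were aligned with TopHat to mm10 and edgeR is also listed, without versions. The files list 24481 lines and 24421 symbols, and the 103 lines that share 43 symbols were summed. Genes were filtered with filterByExpr, and 18727 were tested in edgeR 4.0.16 (R 4.3.3) with TMM and quasi-likelihood F tests in 1 model of 3 groups. The Benjamini-Hochberg adjustment covered every gene tested (threshold 0.05). The biological coefficient of variation was 27.4%. A prior count of 2 entered log2 CPM. The tests were tried on simulated counts. DESeq2 1.42.0 and limma 3.58.1 were alternatives, as were other scalings, filters and covariates, a replicate block, the 14 microglial markers as scale, and each library left out. Loci and exon lengths came from GENCODE M21. Figures were drawn with matplotlib 3.10.9 (Python 3.11.15). Named genes are the 10 members, pathway genes called in any comparison and up to 12 others by lowest p, 5 genes most like Apoe and Lpl, sex-linked genes, and markers of 9 cell types. The members and lists were chosen with earlier results of these data known. Counting error alone understates the error of PCR-amplified reads.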

Additional observations from a re-analysis of the deposited data

How the results depend on the processing

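Over the 30 log2 fold changes of the members, 560 recomputed values were compared with those reported, and 483 kept their direction and their side of the threshold. Another 53 reversed, 20 became called and 4 lost their call. All 30 kept both under limma, upper-quartile normalization, total counts only, no filter beyond 1 read, the replicate block and a fit of only the 2 groups compared. The marker scalings shift all genes, taking the median between APP/PS1 and WT from −0.07 to −1.61, or −1.59 with the library set, so small member values reverse by construction. They account for 21 and 20 of the 53 reversals. For the other changes the cause was not tested. The alternatives with library numbers 1 to 6 only, and with marker scaling together with the library set, were chosen after seeing the data.

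Between APP/PS1 and WT, marker scaling alone and then with the library set reversed Lpl (−0.86, −0.51), Ch25h (−0.85, −0.54), Abca1 (−0.94, −0.96), Abcg1 (−1.44, −1.44), Soat1 (−0.79, −0.85), Plin2 (−0.71, −0.67) and Lipa (−0.78, −0.82). The same pair of settings reversed, between APP/PS1+N-AS and APP/PS1, Lpl (0.16, 0.15), Abca1 (0.45, 0.46), Abcg1 (0.34, 0.34), Soat1 (0.48, 0.52), Plin2 (0.21, 0.18) and Lipa (0.32, 0.34). Between APP/PS1+N-AS and WT they reversed Lpl (−0.70, −0.36), Nr1h3 (−0.79, −0.76), Abca1 (−0.49, −0.50), Soat1 (−0.31, −0.33), Plin2 (−0.51, −0.49), Lipa (−0.46, −0.48) and Npc2 (−0.029, −0.024), and the first of them Ch25h (−0.12). They took Apoe between APP/PS1 and WT to 0.73 and 0.67, and Npc2 to 0.19 and 0.25, none of them called.

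With library numbers 1 to 6 only, Ch25h was −0.066 between APP/PS1 and WT, Soat1 0.10 and Plin2 0.0032 between APP/PS1+N-AS and APP/PS1, and Nr1h3 −0.085 between APP/PS1+N-AS and WT. With the library set as a covariate Ch25h was −0.077 between APP/PS1+N-AS and APP/PS1. Leaving out 1 library gave signs of both kinds for Nr1h3 (−0.29 to 0.14) and Abcg1 (−0.013 to 0.16) between APP/PS1 and WT, for Ch25h (−0.13 to 0.40) between APP/PS1+N-AS and APP/PS1, and for Lpl (−0.059 to 0.72) and Nr1h3 (−0.062 to 0.30) between APP/PS1+N-AS and WT.

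The 2 members called between APP/PS1 and WT became 6 at an unadjusted p under 0.05, 5 with DESeq2, 5 with the library set, 5 (all lower) with marker scaling, 5 (all lower) with both, and 2 to 4 with 1 library left out. The 8 other pathway genes became 20 unadjusted, 5 with total counts only, 83 with marker scaling, 13 (10 higher, 3 lower) with the set, 84 with both, 4 with only the 2 groups, and 3 to 12 with 1 library left out. DESeq2 gave 9 higher and 3 lower, and at least 10 counts in every library gave 8 higher and 3 lower. Of all genes, DESeq2 called 870 higher and 492 lower, and the library set gave 751 higher and 304 lower. Marker scaling called 17116 of 18727 genes, or 17143 with the set. Between APP/PS1+N-AS and APP/PS1 the 0 members called by edgeR became 3 unadjusted, 1 with DESeq2 and 1 (Soat1) with marker scaling and set, and stayed at 0 with 1 library left out. The 0 other pathway genes became 8 unadjusted, 1 with DESeq2, 40 with marker scaling and 44 with both. Of all genes, DESeq2 called 79 in this contrast. Marker scaling called 6787 of 18727 genes, or 7548 with the set. Between APP/PS1+N-AS and WT the 0 members became 4 unadjusted, 1 with DESeq2, 1 with marker scaling, 3 with numbers 1 to 6, 1 with marker scaling and set, and 0 to 1 with 1 library left out. The 1 other pathway gene became 10 unadjusted, 3 with DESeq2, 3 with numbers 1 to 6 and 0 with only the 2 groups. It became 69 with marker scaling, 72 with marker scaling and set, and 0 to 1 with 1 library left out. Of all genes, DESeq2 called 187 and numbers 1 to 6 called 437. Marker scaling called 13690 of 18727 genes, or 14051 with the set.

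The replicate block, which pairs libraries by replicate number, left the members called at 2, 0 and 0, and took the other pathway genes to 4, 0 and 0. The pairing check correlated same-numbered libraries after group means were removed. The lowest r was −0.485 between APP/PS1 and WT, 0.142 between APP/PS1+N-AS and APP/PS1, and −0.136 between APP/PS1+N-AS and WT, so the numbers do not pair the libraries throughout.

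Nr1h3, Ch25h and Plin2 had the fewest reads of the members, from 23 to 288 per library, and how far depth limits them was not tested. Each group has 3 or 4 pools of 2 mice. Among numbers 7 to 10, WT and APP/PS1+N-AS have 1 library each, so their spread within that set is unknown.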

Other observations

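The remaining marker lists, given as summed CPM, have no part in a comparison of the members, and their part in the results was not tested. The 8 endothelial markers summed to 1147, 1395 and 512 CPM in WT, to 1180, 1160, 1070 and 1187 CPM in APP/PS1, and to 977, 1123 and 1020 CPM in APP/PS1+N-AS, with Flt1 the most abundant. The 6 markers of pericytes and smooth muscle summed to 1554, 1911 and 400 CPM in WT, to 969, 924, 776 and 1050 CPM in APP/PS1, and to 863, 911 and 1117 CPM in APP/PS1+N-AS, with Myh11 the most abundant. WT 3 was the lowest library on both vascular lists.

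The 8 markers of border macrophages summed to 52.7, 41.4 and 31.0 CPM in WT, to 26.9, 29.7, 54.2 and 49.3 CPM in APP/PS1, and to 24.6, 31.8 and 52.4 CPM in APP/PS1+N-AS, with Mrc1 the most abundant. For monocytes and neutrophils 7 of 8 markers were matched (not Ly6g), and they summed to between 7.86 and 24.1 CPM in 9 of the libraries and to 72.6 CPM in APP/PS1 3, where S100a9 alone read 38.1 CPM. Ly6c2 was their most abundant gene on average, and Plac8 was at 0 in some. The 6 choroid plexus markers summed to 421, 419 and 18.6 CPM in WT, to 890, 1225, 901 and 712 CPM in APP/PS1, and to 631, 839 and 21.2 CPM in APP/PS1+N-AS, with Ttr the most abundant. WT 3 and APP/PS1+N-AS 3 were the low libraries. By edgeR 0 markers of these 5 lists were called between APP/PS1 and WT, and Kl alone was at an unadjusted p under 0.05.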
